A study of Mus musculus with 2 samples.

Results

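The 33 genes described here code for the enzymes, transporters and regulators of glycolysis (19 genes) and for the oxygen sensors and targets of the hypoxia response (14 genes), and they were chosen by name from the 27999 genes listed for each library. The study compared lungs with little and with much metastatic growth, and its single-cell RNA sequencing holds 1 library of each. Both lungs came from female FVB/NJ mice that were 10 weeks old when cells of Met-1, a carcinoma line from mouse mammary gland, were injected into the tail vein. The low-burden lung was taken at week 1 and the high-burden lung at week 3, so metastatic burden, time after injection and the individual mouse cannot be told apart. The whole lung was dissociated with enzymes and no cells were sorted. With 1 library per group no test between groups was possible, all intervals below are 95% intervals that cover counting error only, and a fold change has no replicate check.

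Glycolysis splits glucose into pyruvate. Its upper part uses ATP to phosphorylate and cleave the sugar, and its lower part, from triose phosphate isomerase and glyceraldehyde-3-phosphate dehydrogenase to pyruvate kinase, returns ATP, after which lactate dehydrogenase and the monocarboxylate transporters turn pyruvate into lactate and carry it out of the cell. When oxygen is short the prolyl hydroxylases (Egln genes) stop marking the transcription factor Hif1a for destruction, and it then binds a short DNA core and raises many glycolysis genes along with genes for mitophagy, pH control and collagen processing. Tumour cells and activated macrophages are known for a high glycolytic rate also where oxygen is present.

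After filtering, 2473 low-burden and 3033 high-burden cells remained, with medians of 4073 and 13998 unique molecular identifiers (UMIs, each a counted RNA molecule) per cell. The libraries share 11 cell barcodes. Cells were assigned to classes by marker genes, and each class name stands for cells like that type (carcinoma-like, C1q macrophage-like and so on). The metastatic carcinoma class held 1383 cells, all in the high-burden library, and the upper limit for the 0 low-burden cells was 0.149% of the library. C1q macrophages, marked by C1qa, C1qb and C1qc, numbered 50 and 742, while alveolar macrophages numbered 429 and 3. Of the classes, 8 had at least 20 cells in both libraries and could be compared. Genes kept out of the gates checked the names: Etv4, Shox2, Tfap2a, Col11a1 and 3300005D01Rik summed to 190.3 CPM (UMIs of a gene per 1000000 UMIs of the class) in the metastatic class and to between 6.74 and 36.4 CPM in the other high-burden classes, while Xist stood at 32.0 CPM in the metastatic class and at 417 to 923 CPM in the others. The PYMT transgene, the viral oncogene behind the Met-1 tumour, did not separate the high-burden classes, with 40.0 to 83.2 CPM in each high-burden class of at least 20 cells and 0 CPM in each such low-burden class. All levels below are CPM of a class in 1 library.

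The cores ACGTG and GCGTG, to which Hif1a binds, were searched on both strands in 300 bases around the RefSeq start sites (250 before and 50 after, GRCm38.p6). Of the 33 genes 31 matched the table, and 29 of these had a core in at least 1 window (93.5%), against 46.7% of all genes. With ACGTG alone the shares were 77.4% and 21.8%. The windows of these genes also held more CpG dinucleotides, with a median of 22 against 7. Among all windows with at least 13 CpG the share with a core was 70.5%, and 28.2% with ACGTG alone. These are shares of single windows, whereas the shares before are of genes, which can have several windows. A match of letters is not a binding site. The 250 bases before the start are shown for 4 genes whose levels took different courses below, with ACGTG, or its reverse complement CACGT, in capitals, so that the palindrome CACGTG counts on both strands. Ldha was 2-fold or more higher in 5 of 8 classes at high burden, Slc16a1 and Egln3 stood high in the metastatic cells, and Bnip3 was past 2-fold in no class.
Ldha, chr7:46845554-46845803, plus strand: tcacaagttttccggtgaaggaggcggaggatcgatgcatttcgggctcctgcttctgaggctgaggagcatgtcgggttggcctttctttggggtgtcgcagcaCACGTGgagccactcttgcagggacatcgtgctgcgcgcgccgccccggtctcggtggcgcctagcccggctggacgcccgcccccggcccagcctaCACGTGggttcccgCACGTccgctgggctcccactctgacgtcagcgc
Slc16a1, chr3:104638414-104638663, plus strand: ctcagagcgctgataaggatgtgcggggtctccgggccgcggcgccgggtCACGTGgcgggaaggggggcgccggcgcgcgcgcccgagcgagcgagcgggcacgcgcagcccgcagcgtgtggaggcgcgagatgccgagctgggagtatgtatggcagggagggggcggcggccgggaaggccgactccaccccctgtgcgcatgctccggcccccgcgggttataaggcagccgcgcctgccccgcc
Egln3, chr12:54203875-54204124, minus strand: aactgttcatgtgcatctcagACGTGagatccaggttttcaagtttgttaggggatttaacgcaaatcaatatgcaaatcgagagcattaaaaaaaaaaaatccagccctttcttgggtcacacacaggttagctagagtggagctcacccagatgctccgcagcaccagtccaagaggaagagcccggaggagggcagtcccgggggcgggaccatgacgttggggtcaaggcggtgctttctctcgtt
Bnip3, chr7:138909507-138909756, minus strand: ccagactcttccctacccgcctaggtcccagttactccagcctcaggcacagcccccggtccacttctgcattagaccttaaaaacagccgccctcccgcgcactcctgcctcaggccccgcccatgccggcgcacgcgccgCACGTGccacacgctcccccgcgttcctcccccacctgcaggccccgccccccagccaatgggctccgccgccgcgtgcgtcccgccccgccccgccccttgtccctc
A RefSeq start site lies just after the last base of each line. Ldha has another window, at chr7:46846832-46847081, which holds 0 ACGTG and 2 GCGTG cores.

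The 19 glycolysis genes together reached 9183 CPM in the metastatic cells, the highest sum of any class of at least 20 cells in either library. The next highest sums at high burden were 6914 CPM in monocytes, 6108 CPM in C1q macrophages and 6023 CPM in T cells, and the lowest was 2076 CPM in club cells, the secretory cells of the airway. In the low-burden library the sums ran from 1200.5 CPM in club cells to 3286 CPM in smooth muscle or pericytes. In each of the 8 classes that could be compared the sum was higher in the high-burden library. With free RNA subtracted, in the way described with these classes below, the direction turned in AT2 cells under both estimates and in dendritic, endothelial, fibroblast and club cells under the larger one. All 14 hypoxia genes summed, Mif included, had log2 ratios from 0.33 in AT2 cells to 1.05 in C1q macrophages, and -0.03 (-0.11 to 0.04) in endothelial cells. With free RNA subtracted this ratio was below 0 in AT2 cells under both estimates and in dendritic and club cells under the larger one. The 13 hypoxia genes other than Mif behaved differently, with 531 CPM in the metastatic cells and intervals that overlapped between the libraries in 7 of the 8 classes. Endothelial cells were the exception, with 1338 CPM in the low-burden and 1021 CPM in the high-burden lung. That difference came from Hilpda, and without Hilpda the other 12 genes summed to 633 and 688 CPM there (log2 ratio 0.12, 0.01 to 0.24). The Hilpda difference itself reversed under 1 estimate of free RNA, described with that gene below.

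**Figure D1:**
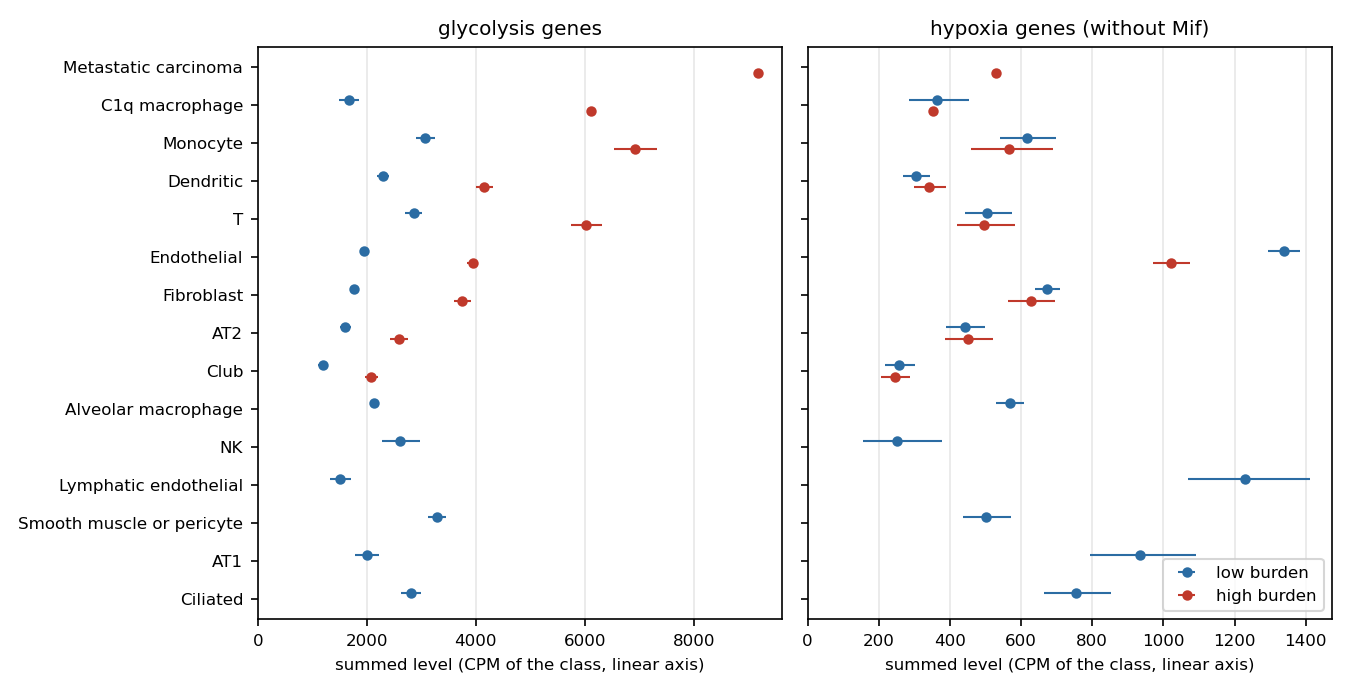
Summed level of the 19 glycolysis genes (left) and of the 13 hypoxia genes without Mif (right) in each cell class, in CPM of the class on linear axes, for the low-burden (blue) and high-burden (red) library. Bars are exact 95% Poisson intervals for counting error, 1 library per group. Glycolysis sums, with no free RNA subtracted, are higher at high burden in all 8 shared classes (5 of them turn under the larger free RNA estimate), while the hypoxia sums overlap in all but the endothelial class, where Hilpda sets the difference.

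Within the high-burden library, the metastatic cells were compared with the 1225 cells of all other gated classes, which shared the library but were shallower per cell. Of the 33 genes, 10 were 2-fold or more higher in the metastatic cells, against 14.8% of the 12451 genes with at least 50 UMIs, and 4 were 2-fold or more lower, against 19.8%. The median log2 ratio was 0.66 over the glycolysis genes and 0.31 over the hypoxia genes, beside 0.14 over all genes. The glycolysis genes past 2-fold were 3 of the lower part and 2 of the upper part, plus 1 transporter.

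In the lower part, triose phosphate isomerase (Tpi1), which interconverts the triose phosphates, stood at 863 CPM in metastatic and 349 CPM in other cells (log2 ratio 1.31, 95% interval 1.26 to 1.35). Enolase (Eno1) stood at 879.8 against 362 CPM (1.28, 1.24 to 1.32), and pyruvate kinase (Pkm), which makes pyruvate and ATP, at 1702 against 708 CPM (1.27, 1.23 to 1.30). All 7 genes of the lower part were higher in the metastatic cells, but Gapdh, Ldha, Pgk1 and Pgam1 by less than 2-fold, with log2 ratios of 0.66, 0.81, 0.92 and 0.32. Pgam1, phosphoglycerate mutase, was the closest to level of the 7, at 317 against 253 CPM.

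In the upper part the phosphofructokinases, which commit the sugar to glycolysis, differed by isozyme. Pfkl, the liver form, stood at 89.2 against 38.4 CPM (log2 ratio 1.22), Pfkm, the muscle form, at 16.6 against 6.21 CPM (1.42), and Pfkp, the platelet form, at 37.4 against 44.5 CPM (-0.25). Pfkl thus made up 62.3% of the phosphofructokinase UMIs of the metastatic cells (exact binomial interval 60.9 to 63.7%), 46.8% of those of C1q macrophages and 17.9% of those of dendritic cells, in which Pfkp held 76.9%. The share was not particular to the metastatic cells. It was 81.25% in high-burden AT2 cells (13 of 16 UMIs), and 64.0% in AT2, 63.6% in ciliated and 55.6% in endothelial cells at low burden. Hexokinases trap glucose in the cell. Of the UMIs of the pair Hk1 and Hk2, Hk2 held 63.4% in metastatic cells and 81.4% in high-burden C1q macrophages. Hk3 was not counted in these shares. It had 44 UMIs in metastatic cells, beside 2510 of Hk2, and 394 in those macrophages, beside 702 of Hk2. The order of the 2 shares therefore holds for the pair only. In endothelial cells Hk2 held 10 of 87 UMIs of the pair (11.5%) at high burden and 2 of 127 (1.57%) at low burden. Hk1, Hk2 and Aldoa were higher by less than 2-fold, with log2 ratios of 0.88, 0.27 and 0.57. The only upper-part genes lower in the metastatic cells were Pfkp and glucose-6-phosphate isomerase (Gpi1), at 189 against 299.7 CPM (-0.66), short of 2-fold.

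The 2 lactate transporters differed in opposite directions. Slc16a1 (MCT1), which carries lactate in either direction, stood at 60.1 CPM in the metastatic cells and 16.4 CPM in the others (log2 ratio 1.87, 1.67 to 2.08). Slc16a3 (MCT4), known as the lactate exporter of glycolytic cells, stood at 4.16 against 42.9 CPM (-3.36, -3.64 to -3.09). In C1q macrophages Slc16a1 stood at 10.4 CPM and Slc16a3 at 55.9 CPM. Slc16a1 was 93.5% of the UMIs of this pair in metastatic cells and 15.7% in C1q macrophages. AT2 cells, the surfactant-making cells of the alveolus, held only Slc16a1 at high burden (12 of 12 UMIs) and 96.0% at low burden. In high-burden T cells Slc16a1 stood at 43.8 CPM and held 13 of 18 UMIs of the pair (72.2%), and in club cells 10 of 15 (66.7%). In the remaining high-burden classes of at least 20 cells it held 8.33% (monocytes) to 43.75% (fibroblasts). The glucose transporter Slc2a1 differed little between metastatic and other cells, at 23.4 against 19.0 CPM, and Pfkfb3, which makes the activator of phosphofructokinase, was lower, at 6.48 against 17.0 CPM (-1.40). Pdk1, the kinase that keeps pyruvate out of mitochondria, was at 0.60 on the log2 scale.

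**Figure D2:**
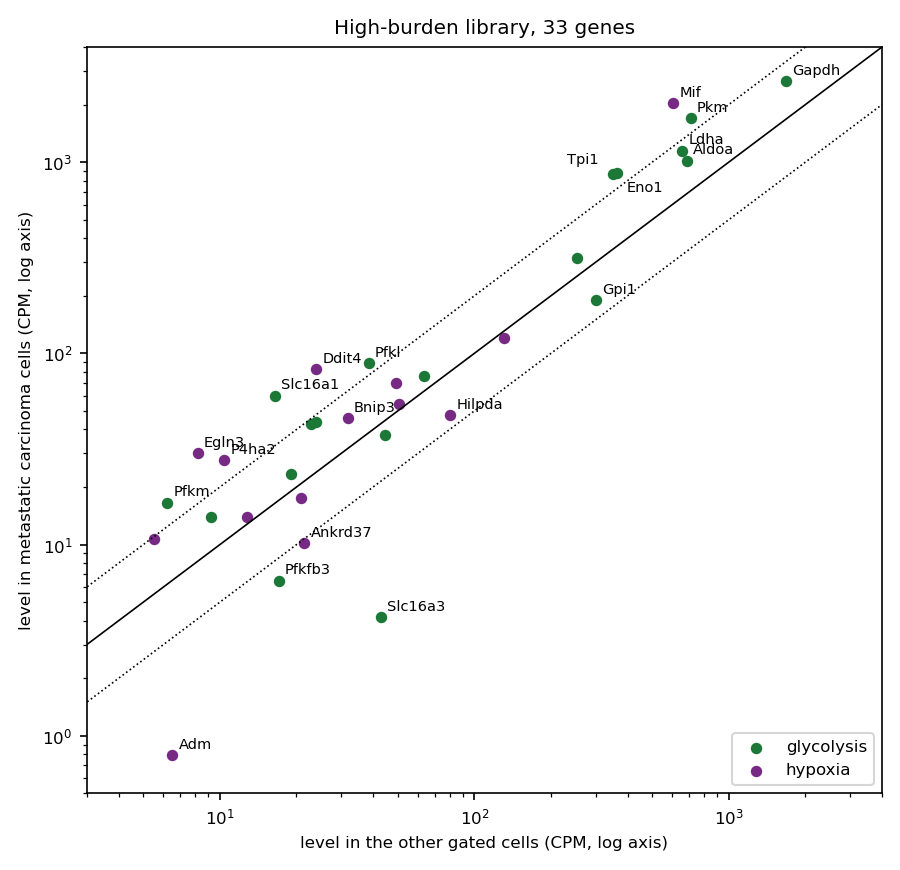
Level of each of the 33 genes in metastatic carcinoma cells (vertical) and in the other gated cells (horizontal) of the high-burden library, in CPM on log axes. The solid line marks equal levels and the dotted lines 2-fold differences. Slc16a3 and Adm lie far under the lines and Mif, Ddit4, Egln3 and Slc16a1 above them.

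Of the 14 hypoxia genes, 4 were 2-fold or more higher in the metastatic cells. Mif, a cytokine and a known hypoxia target, stood at 2043 against 605 CPM (log2 ratio 1.76, 1.72 to 1.79). The oxygen sensor Egln3 stood at 30.2 against 8.18 CPM (1.88), whereas its relative Egln1 was level, at 13.9 against 12.8 CPM. Ddit4, an inhibitor of mTOR signalling that stress induces, stood at 82.6 against 23.9 CPM (1.79), and P4ha2, a subunit of collagen prolyl hydroxylase, at 27.7 against 10.4 CPM (1.42). Among high-burden classes of at least 20 cells, P4ha2 reached 41.6 CPM in AT2 cells and 27.7 CPM in fibroblasts. The remaining non-metastatic ones had at most 19.3 CPM of it. Ddit4 reached 70.8 CPM in T cells, 64.2 CPM in endothelial cells and 51.5 CPM in monocytes. The remaining non-metastatic classes had between 12.9 CPM (C1q macrophages) and 29.5 CPM (fibroblasts) of it. The peptide hormone Adm was nearly absent from the metastatic cells (26 UMIs, 0.790 CPM) and Ankrd37 was lower (10.2 against 21.5 CPM). Adm was also at most 3.37 CPM in the other high-burden classes of at least 20 cells, except fibroblasts (36.4 CPM) and endothelial cells (26.9 CPM). Ankrd37 stood at 93.9 CPM in endothelial cells and at 11.4 to 20.2 CPM in monocytes, C1q macrophages and T cells. In fibroblasts and dendritic, club and AT2 cells, at 5.20 to 8.67 CPM, it was below the metastatic level. The carbonic anhydrase Car9, a classic marker of hypoxic tumour, was scarce in both sets, at 10.6 and 5.53 CPM, as 350 UMIs over the 1383 metastatic cells. Hif1a itself did not differ beyond counting error (0.12, -0.01 to 0.25). Bnip3, P4ha1, Bnip3l, Ndrg1 and Hilpda stayed within 2-fold, at 0.53, 0.50, -0.12, -0.25 and -0.76.

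Against the C1q macrophages alone, 11 of the 32 genes past the filter were 2-fold or more higher in the metastatic cells (23.5% of all genes) and 2 lower (12.7%). A median-of-ratios scaling, which shifts every gene by 0.20 on the log2 scale here, gave 6 higher (18.9% of all genes) and 3 lower (15.0%). Gapdh was 0.36 and Hk2 -0.15 on the log2 scale, so that these 2 genes were nearly level between carcinoma cells and macrophages, while Ddit4 (2.68), Egln3 (2.88) and Slc16a1 (2.53) were higher in the carcinoma cells and Slc16a3 (-3.75) was higher in the macrophages. Over the 9 high-burden classes of at least 20 cells, 13 of the 33 genes had their highest level in the metastatic cells, 10 of them glycolysis genes. No such share over all genes is given beside it, so the count alone does not show an enrichment.

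The metastatic cells were not uniform. Thinned to 3000 UMIs per cell, 546 of the 1383 cells had 4 or more UMIs of 8 division genes and 283 had none. The cells in between were in neither set. Of the 24 genes past the filter, none was 2-fold higher in the dividing cells (6.21% of all genes) and 2 were 2-fold lower (2.79%), Ddit4 and Bnip3l. Ddit4 stood at 58.0 CPM in dividing cells and 133 CPM in the cells with no division UMI (log2 ratio -1.20, -1.61 to -0.79). The mitophagy receptor Bnip3l stood at 87.9 against 179 CPM (-1.03, -1.37 to -0.69). Bnip3, its relative, and Hk2 were lower by less, at -0.60 and -0.52. Slc16a1 (0.72), Pgam1 (0.55), Mif (0.48), Ldha (0.32), Tpi1 (0.29) and Gapdh (0.28) were somewhat higher in the dividing cells, each with an interval above 0. The summed hypoxia genes without Mif were lower in the dividing cells (log2 ratio -0.51), whereas with Mif their sum was higher (0.25), so the sign of the sum rests on Mif. At 5000 UMIs per cell with the same division cut, which moves cells into the dividing set, 1 hypoxia gene was past 2-fold lower.

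In C1q macrophages, which numbered 50 and 742 cells, the summed glycolysis level was 1668 CPM in the low-burden and 6108 CPM in the high-burden library, 3.66-fold higher. Of the 29 genes past the filter 15 were 2-fold or more higher, beside 14.1% of all genes, and 1 was lower, beside 13.0%. The low-burden class is small, and 9 of the 15 had an interval above 0, beside 6.31% of all genes. These were Gapdh, Mif, Pkm, Ldha, Pgam1, Tpi1, Aldoa, Eno1 and Slc16a3.

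Gapdh had 60 UMIs in the low-burden macrophages, or 283 CPM, and 2068 CPM at high burden (log2 ratio 2.87, 2.51 to 3.26). Pkm went from 174 to 781 CPM (2.16) and Ldha, which makes lactate, from 174 to 718 CPM (2.04). Aldolase (Aldoa), the enzyme that cleaves the sugar, went from 273 to 753 CPM (1.46, 1.09 to 1.86). The difference was uneven along the pathway. The 7 genes of the lower part summed to 985 and 4705 CPM (log2 ratio 2.26) and the 7 of the upper part to 603 and 1291 CPM (1.10). Hk2 was level, at 84.8 and 84.8 CPM (-0.67 to 0.76), and Pfkp was at 37.7 and 39.7 CPM. Pfkfb3 was lower at high burden, from 37.7 to 15.1 CPM (-1.32), from 8 low-burden UMIs. The other 6 genes past 2-fold (Slc2a1, Hk1, Pfkl, Pgk1, Ndrg1 and Ankrd37) had 1 to 4 UMIs at low burden and intervals that included 0.

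The 14 hypoxia genes of the macrophages summed to 495 and 1028 CPM (log2 ratio 1.05, 0.78 to 1.35), a difference that rested on Mif. With free RNA subtracted, as described below, this log2 ratio was 0.25 or 0.83. Without Mif they summed to 363 and 354 CPM (log2 ratio -0.04, -0.36 to 0.31). Bnip3l, at 165 and 105 CPM, Hilpda, which inhibits the breakdown of lipid droplets, at 61.2 and 53.3 CPM, and P4ha1, at 47.1 and 51.9 CPM, stayed within 2-fold. Mif went from 132 to 674 CPM (2.35, 1.82 to 2.94).

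The glycolysis sum of the macrophages stayed at least 2-fold higher under all 12 other settings that were run, with log2 ratios from 1.42 to 1.91. The high-burden macrophages were deeper, at a median of 10493 against 3906 UMIs per cell, and with all cells thinned to 2000 UMIs the ratio was 1.73. Some RNA in each droplet is free RNA from other cells. Carcinoma-only genes (Etv4, Shox2, Tfap2a, Col11a1 and 3300005D01Rik) stood at 8.57% of their metastatic level in the high-burden macrophages and at 0 in the low-burden ones. PYMT was not among them. It stood at 58.8 CPM in the high-burden macrophages and 64.6 CPM in the metastatic cells, so this share depends on the genes taken. With an estimate of free RNA subtracted, the log2 ratio was 1.70 or 1.82, depending on how the estimate was made. For Mif, whose level in carcinoma cells is high, the log2 ratio fell to 0.89 under the larger estimate.

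Among the 742 high-burden macrophages, 75 held an Arg1 UMI at 3000 UMIs per cell. Arg1, arginase, is a known marker of alternatively activated macrophages, and a cell without an Arg1 UMI may still express it. The glycolysis genes were modestly higher in these cells, with sums of 7249 and 5851 CPM (log2 ratio 0.31), and none passed 2-fold. Of the 19 genes past the filter 2, both hypoxia genes, were 2-fold or more higher (3.77% of all genes) and none was 2-fold lower (8.90%). Bnip3 stood at 88.9 CPM with and 25.5 CPM without Arg1 (log2 ratio 1.80, 0.98 to 2.57, from 20 and 51 UMIs), and Hilpda at 116 against 48.0 CPM (1.27, 0.58 to 1.91). Bnip3l, at 182 against 102 CPM (0.84), leaned the same way by less than 2-fold, while Hif1a was -0.46 (-1.71 to 0.57), an interval that holds 0.

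**Figure D3:**
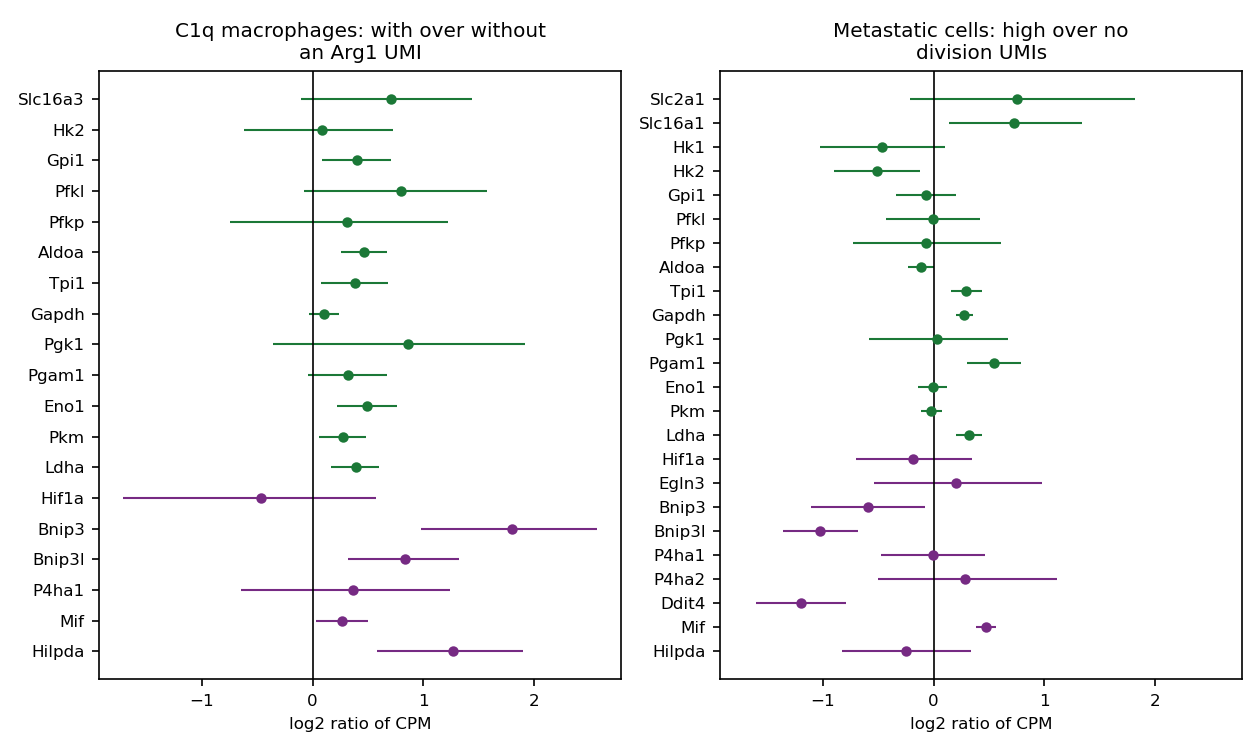
Log2 ratio of CPM for the genes past the filter, between C1q macrophages with and without an Arg1 UMI (left) and between metastatic cells with 4 or more and with no UMIs of 8 division genes (right), high-burden library, cells thinned to 3000 UMIs. Points are ratios, bars exact 95% intervals for counting error, green glycolysis and purple hypoxia genes. Bnip3 and Hilpda are highest on the left, Ddit4 and Bnip3l lowest on the right.

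Monocytes numbered 107 and 25 cells. Of the 11 genes past the filter 6 were 2-fold or more higher at high burden (7.92% of all genes) and 1 was lower (13.7%), and all 6 were also past 2-fold in C1q macrophages of the same libraries. Mif went from 105 to 749 CPM (log2 ratio 2.83, 2.32 to 3.37), Tpi1 from 105 to 538 CPM (2.35), Ldha from 252 to 818 CPM (1.70), Gapdh from 652 to 2002 CPM (1.62), Pgam1 by 1.59 and Pkm by 1.18. Eno1, already 532 CPM in low-burden monocytes, was level (0.27, -0.08 to 0.61). Slc16a3 was lower at high burden, from 53 UMIs (136 CPM) to 11 UMIs (62.9 CPM), opposite to C1q macrophages, where 5 UMIs (23.6 CPM) stood against 55.9 CPM. With cells thinned to 2000 UMIs, 22 low-burden and 6 high-burden Slc16a3 UMIs remained in monocytes and 5 and 87 in C1q macrophages, and the log2 ratios of 0.22 (-1.37 to 1.57) and 0.23 (-1.05 to 1.89) were too imprecise to give a direction. Alveolar macrophages had 3 cells at high burden and no ratio. At low burden they had 677 CPM of Gapdh and 353 CPM of Bnip3l, beside 342 CPM in endothelial cells, the highest levels of that gene.

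In the 6 other classes the genes past 2-fold again lay mostly in the lower part of the pathway. Tpi1, Gapdh, Pkm and Mif were 2-fold or more higher at high burden in 7 of the 8 classes, Eno1 and Ldha in 5 and Pgam1 in 4, while 17 of the 33 genes were past 2-fold higher in no class. Gapdh ranged from a log2 ratio of 0.91 in club cells to 2.87 in C1q macrophages, and Tpi1 from 0.66 in AT2 cells to 2.57 in T cells. Gpi1 passed the filter in all 8 classes and 2-fold in none, and Aldoa passed 2-fold in C1q macrophages only. T cells had 6 of 13 genes past 2-fold (9.82% of all genes), endothelial cells 9 of 25 (3.71%, but 2 genes with clusters in place of gates and 5 with cells thinned), fibroblasts 7 of 23 (4.02%), dendritic cells 5 of 15 (4.71%), club cells 4 of 10 (5.86%) and AT2 cells 2 of 12 (3.90%). None was 2-fold or more lower in T (7.25% of all genes), dendritic (5.07%), club (3.47%) or AT2 cells (2.87%). A gene passed the filter on its UMIs over both libraries, of which the high-burden one is deeper, so these counts are not counts of all 33 genes. No share of all genes is given for the clusters or the thinned cells.

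**Figure D4:**
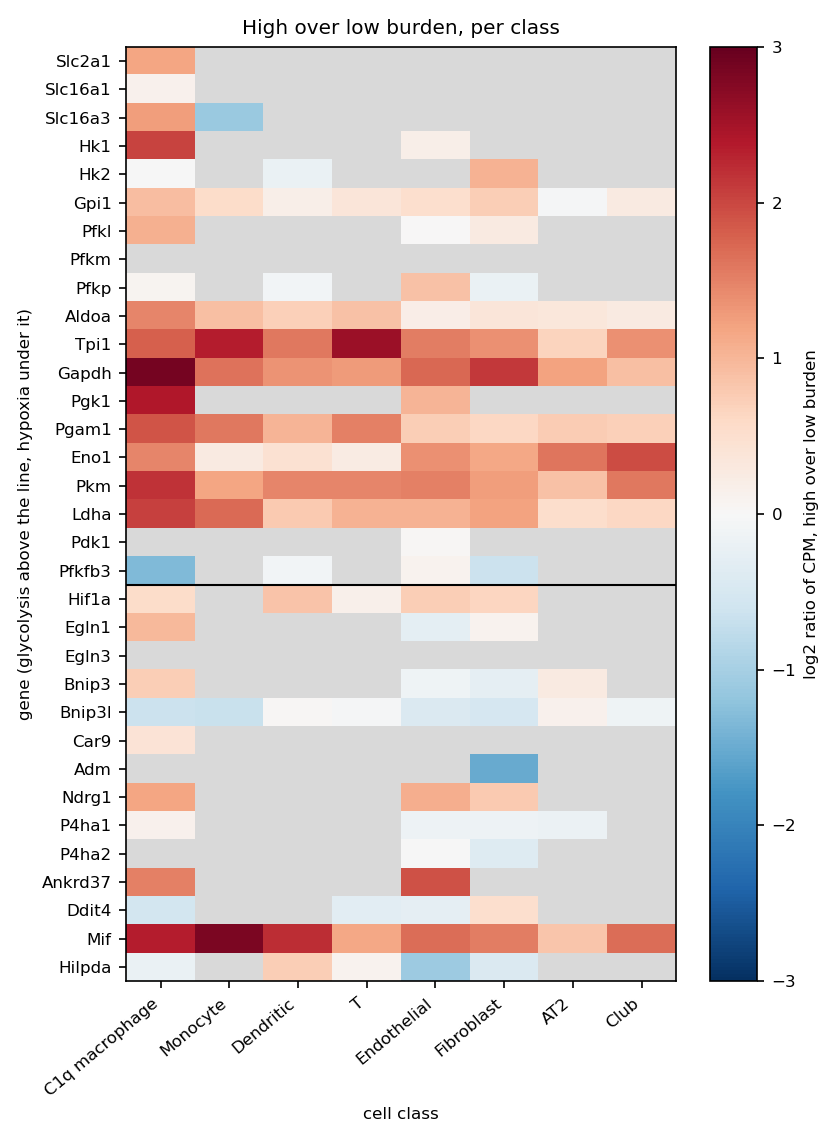
Log2 ratio of CPM, high over low burden, for the 33 genes (rows) in the 8 cell classes with at least 20 cells in both libraries (columns), 1 library per group. Grey marks genes with under 50 UMIs over both libraries or with no low-burden UMI. The band from Tpi1 to Ldha and the Mif row are red across classes, the other hypoxia rows are mostly pale, and several C1q macrophage values (Slc2a1, Hk1, Pgk1, Ndrg1, Ankrd37) rest on 1 or 2 low-burden UMIs.

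In these 6 classes the ratios depended on free RNA. The metastatic cells were 45.6% of the high-burden cells and had a median of 21899 UMIs per cell, the deepest class of that library. Carcinoma-only genes, again without PYMT, stood at 3.54% (T cells, from 2 UMIs) to 19.1% (fibroblasts) of their metastatic level. The metastatic cells held most of the UMIs of that library. With the lower estimate of free RNA subtracted, 0 genes passed 2-fold in AT2 and club cells, 2 in dendritic cells and fibroblasts and 4 in endothelial cells. No share of all genes is given for these counts. The AT2 glycolysis sum turned from a log2 ratio of 0.69 to -0.26. The log2 ratio of the T cell sum was 1.00 instead of 1.08, and that of the monocyte sum 1.12 instead of 1.17. The fibroblast, endothelial, dendritic and club sums were at 0.80, 0.68, 0.52 and 0.19 instead of 1.10, 1.01, 0.85 and 0.79, and all 4 were below 0 with the larger estimate. With clusters in place of gates the endothelial sum was at 0.47. In these 4 classes and AT2 cells, glycolysis RNA of the cells themselves and carcinoma RNA in their droplets cannot be told apart. The fibroblast Gapdh ratio also moved with the gate, from 1.21 under a stricter gate to 2.32 with clusters in place of gates, and was 1.52 without its top cell.

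Single hypoxia genes differed in single classes. In endothelial cells 1 gene was 2-fold or more lower at high burden (3.62% of all genes), and in fibroblasts 1 (11.2%). Hilpda was an endothelial gene at low burden, at 705 CPM against 21.7 to 84.6 CPM in the other 13 classes, and stood at 333 CPM at high burden (log2 ratio -1.08, -1.23 to -0.94). This ratio was -0.58 with clusters in place of gates, short of 2-fold, and 0.26 with the larger estimate of free RNA subtracted, which reverses it. Ankrd37, an ankyrin-repeat protein known as a Hif1a target, went the other way in the same cells, from 25 to 93.9 CPM (1.91, 1.47 to 2.35), and 0.71 with clusters. Ndrg1, a stress-response gene, went from 26.5 to 56.6 CPM in endothelial cells (1.09) and stood at 534 CPM in the 23 low-burden lymphatic endothelial cells, the highest level of this gene in any class.

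Adm, the vasodilator adrenomedullin, was found in fibroblasts (104 CPM), lymphatic endothelial cells (84.0 CPM) and smooth muscle or pericytes (71.1 CPM) of the low-burden lung, and was lower in high-burden fibroblasts, at 36.4 CPM (-1.52, -2.24 to -0.87). Egln3 had 2 UMIs in low-burden and 35 in high-burden fibroblasts, 0.925 and 60.7 CPM, below the 50 UMIs of the filter and named here after its values were seen. Its fibroblast level was above the 30.2 CPM of the metastatic cells. P4ha1 and P4ha2, subunits of the enzyme that hydroxylates collagen, had their highest low-burden levels in AT1 cells, the flat gas-exchange cells of the alveolus, at 227 and 162 CPM, and Bnip3 in ciliated cells, at 149.5 CPM. Bnip3l passed the filter in all 8 classes, with log2 ratios from -0.66 to 0.12, and Bnip3, P4ha1, Egln1, Hif1a and Ddit4 passed 2-fold in none of the 3 to 5 classes in which each could be compared.

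**Figure D5:**
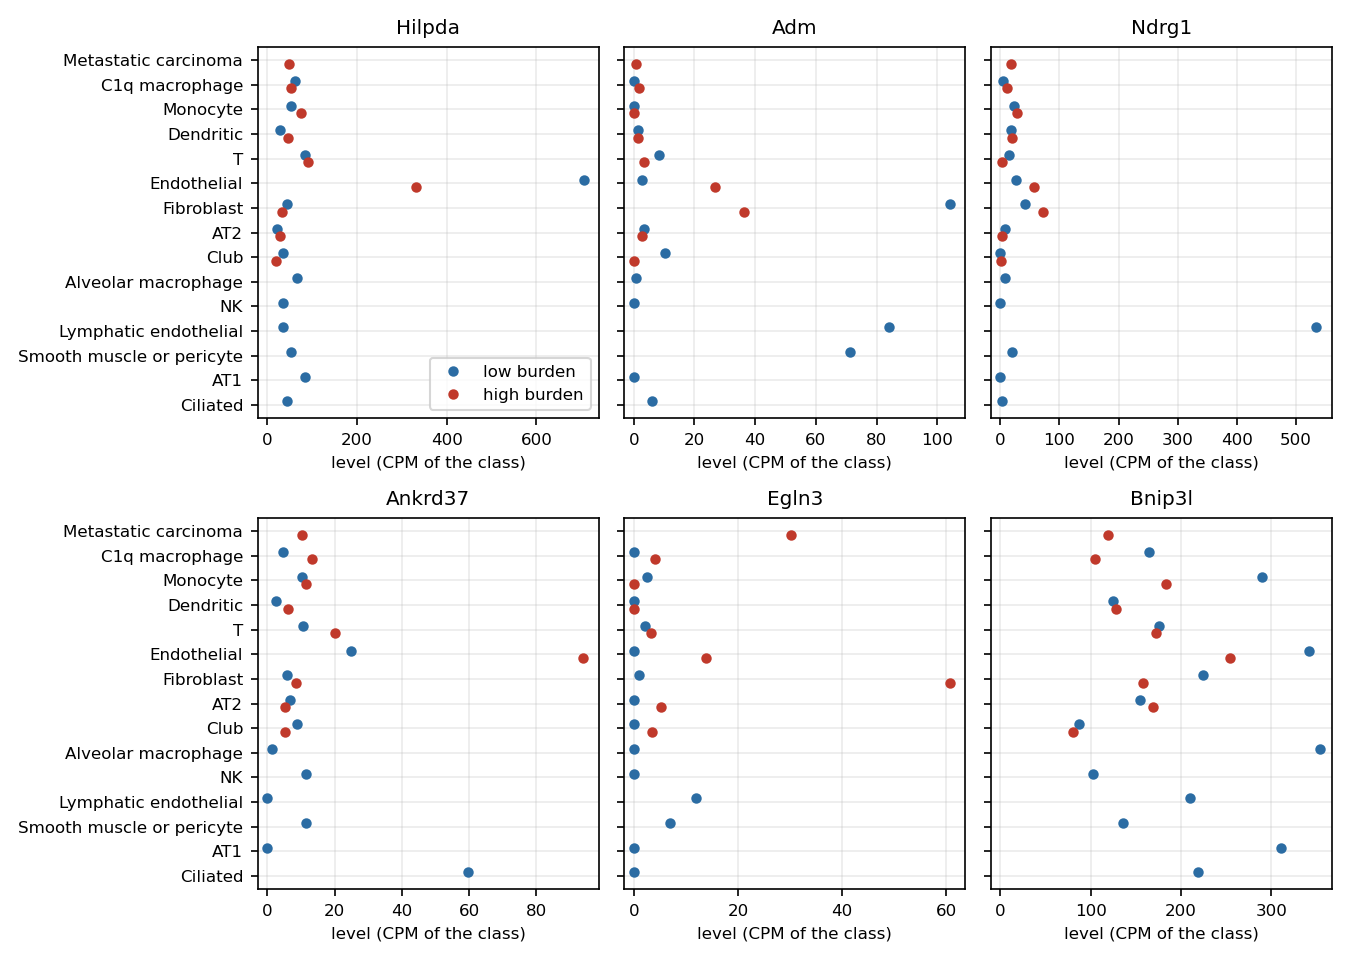
Level of 6 hypoxia genes in each cell class, in CPM of the class on linear axes that differ between panels, for the low-burden (blue) and high-burden (red) library, 1 library per group, without error bars. Hilpda stands out in endothelial cells, Ndrg1 in low-burden lymphatic endothelial cells, Adm in fibroblasts and Egln3 in high-burden fibroblasts and metastatic cells.

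Summed over all cells, as a bulk sample of each lung would be, 15 of the 33 genes were 2-fold or more higher at high burden (11.8% of all genes) and 3 lower (26.8%). In such sums fewer cells of a type and less RNA per cell cannot be told apart. Without the cells of the metastatic class 12 were higher (6.80%) and 2 lower (19.5%). Cells that passed no gate, 383 at low and 425 at high burden, stayed in these sums. Whether carcinoma cells are among them was not tested. The genes that were no longer past 2-fold when the metastatic class was left out were Slc2a1, Pfkl, Aldoa and Pgk1, and Slc16a3 then passed it. Hilpda stood at 221 and 61.2 CPM over all cells (log2 ratio -1.85), beside -1.08 in endothelial cells, which were 18.0% of the low-burden and 4.12% of the high-burden cells.

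The wider pathway lists, 24 further glycolysis-linked and 24 further hypoxia genes, were read in the same way. In the metastatic cells 2 of 20 glycolysis-linked genes past the filter were 2-fold or more higher and 3 lower, and 7 of 24 hypoxia genes higher and 3 lower, beside 14.8% of all genes higher and 19.8% lower, so that only the hypoxia genes that were higher made up a larger share than all genes. Lactate dehydrogenase B (Ldhb) stood at 191 against 60.8 CPM and the hexokinase of myeloid cells, Hk3, at 1.34 against 32.6 CPM. The mitochondrial hypoxia targets Higd1a (399 against 171 CPM) and Fam162a (390.1 against 124 CPM) were higher, and Epas1 (HIF2A), an endothelial factor, lower (39.1 against 194 CPM). Epas1 stood at 1333 CPM in high-burden endothelial and 292 CPM in club cells, while C1q macrophages (37.8 CPM) and fibroblasts (36.4 CPM) were near the metastatic level. In C1q macrophages at high over low burden 6 of 16 glycolysis-linked genes were 2-fold or more higher and 1 lower, beside 14.1% and 13.0% of all genes, and 2 of the 6 had an interval above 0. Of the 6, G6pdx and Pgd, enzymes of the pentose phosphate pathway, went from 18.8 to 54.6 CPM and from 18.8 to 132 CPM, each from 4 low-burden UMIs. Of 19 hypoxia genes 3 were higher, near the share of all genes, and 4 lower there, with the interval clear of 0 for 2 and 3 of them. Txnip, which brakes glucose uptake, went from 391 to 49.8 CPM (-2.97), from 239 to 23.6 CPM in T cells (-3.34) and from 320.1 to 121 CPM in fibroblasts (-1.40). In dendritic cells it went from 153 to 52.4 CPM (-1.55), and in endothelial, club, monocyte and AT2 cells it was lower by less than 2-fold (-0.98, -0.87, -0.76 and -0.51).

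Several of these genes have near-identical copies in the genome, between which reads could be split. In GENCODE M21, 11 of the 33 had another gene with at least 200 bases at 95% identity or more, and Gapdh had 77. The levels of Gapdh, Pgk1, Eno1, Mif and the others are uncertain to that extent, and the ratios between classes less so only if the copies are silent in all of them, which was not tested.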

How the data were processed

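One 10x Genomics single-cell library was made from each of 1 low-burden and 1 high-burden lung. The deposited UMI counts per gene and cell were made by the authors with Cell Ranger 2.0.2 on mm10 with PYMT added, and the submitters' processing notes also name Seurat. The study's methods then aggregated the libraries with Cell Ranger. Whether the deposited counts precede or follow that step, and the chemistry, are not given in the sources used here. The files held 2668 and 3121 cells, and the methods state slightly fewer low-burden cells and the same number of high-burden cells after aggregation. Cells with 1000 to 7000 genes and under 10% mitochondrial UMIs were kept, leaving 13283386 and 51467856 UMIs. Of the low-burden cells 607 had under 3000 UMIs.

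Classes came from marker gates (Python 3.11.15, numpy 2.4.6, scipy 1.17.1): the class score, relative to that of top cells, had to reach 0.35 and the second class to stay under 0.6 of the first. These cuts, and the division cut of 4 UMIs, were set after class sizes and Gapdh levels under 3 gate settings had been seen, and class names may differ from the study's. Doublets were kept and no caller was run. Clusters (scanpy 1.11.5, leidenalg 0.10.2) served as an alternative. UMIs were summed per class and library and divided by the class total (CPM). A gene entered a comparison with at least 50 UMIs over both sets and counted as higher or lower from 2-fold, with a set at 0 UMIs taken at a floor of 3 counts. Intervals are exact (Poisson, binomial, or conditional binomial for ratios). Free RNA per class was estimated from other classes' markers, as the median over lists and, added after that was seen, as the lowest list. Subtraction used each library's summed profile over all cells, and the class total was reduced by the same share. Near-identical copies were sought with blastn 2.17.0. The ratio code was tested on simulated data. The members and lists were chosen with earlier results of these data known. Genes named are those past 2-fold in metastatic cells, in a macrophage class or in at least 2 other classes, plus the fixed pathway lists. Others are given by range and count, and any further gene was named after its values were seen.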

Additional observations from a re-analysis of the deposited data

Results flagged for a closer look

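Slc16a3, the lactate exporter, took opposite directions in 2 myeloid classes. Between the libraries, high over low, its log2 ratio was 1.25 in C1q macrophages (5 low-burden and 463 high-burden UMIs), and -1.11 in monocytes. The difference was not tested, since each class has 1 library per group. With cells thinned to 2000 UMIs the ratios were 0.23 (-1.05 to 1.89) and 0.22 (-1.37 to 1.57), from 5 low-burden UMIs in the macrophages and 6 high-burden UMIs in the monocytes, too few to give a direction at that depth.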

How the results depend on the processing

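No paired analysis was possible because each group has 1 library. Leaving out a replicate was likewise not possible. A count was taken as moved when it changed by over 1.5 times, and a ratio when it left the counting interval of its main value, which is narrow for sums. By these rules 57 of the counts and sums under an alternative moved and 132 did not, and of the ratios of single genes 250 moved, 7 reversed and 782 did neither. The numbers of genes past 2-fold higher moved as follows. Against C1q macrophages, median-of-ratios scaling gave 6 for the metastatic cells instead of 11, and in T cells 3 (4.15% of all genes) instead of 6. Thinning to 2000 UMIs gave 9 of 15 in C1q macrophages, 5 of 9 in endothelial and 0 of 4 in club cells. Subtracting free RNA by the median estimate left 1 in dendritic cells and fibroblasts, 5 in endothelial cells and 0 in AT2 and club cells, and by the lowest estimate 2 in dendritic cells and fibroblasts, 4 in endothelial cells and 0 in AT2 and club cells. The median estimate reached 72.2% in endothelial cells and is an upper bound. Clusters in place of gates gave 2 in endothelial cells, and a stricter gate 1 in AT2 cells. Without the filter on low counts the numbers were 12 in monocytes, 9 in dendritic, 16 in endothelial, 11 in fibroblast, 6 in AT2 and 8 in club cells. Among these alternatives a share of all genes is given for median-of-ratios scaling only. The other counts here cannot be set beside the shares of the main setting.

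The summed glycolysis ratio of metastatic over other cells, 0.80 on the log2 scale, was 0.77 with a stricter gate, 0.81 with a looser one, 0.73 with clusters, 0.65 with median-of-ratios scaling, 0.81 as a mean over cells, 0.83 thinned, 1.10 and 1.04 with free RNA subtracted and 0.78 without Gapdh, Mif, Pkm and Aldoa. The summed hypoxia ratio, 1.28, was 1.32 with a stricter or middle gate, 1.26 with clusters, 1.14 with median-of-ratios scaling, 1.23 thinned, 1.86 and 1.79 with free RNA subtracted and 0.23 without those genes. The number of classes with summed glycolysis past 2-fold, 5, was 2 with a stricter or middle gate (of 4 among the classes that could be run, monocytes left out), 2 with clusters, the lowest free RNA estimate or without those genes, 3 with median-of-ratios scaling, a mean over cells or the top cell left out, and 1 with the median free RNA estimate. The number for summed hypoxia, 1, was 2 with the looser gate and 0 with clusters, thinning, either free RNA estimate or without Mif. In Arg1-bearing macrophages the glycolysis ratio of 0.31 was 0.20 at full depth and 0.22 at 5000 UMIs.

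Directions reversed with the median free RNA estimate for Tpi1 (-2.29) and Pkm (-1.52) in dendritic cells, Hilpda in endothelial cells (0.26) and Hk2 in fibroblasts (-0.59), with the lowest estimate for Gapdh in AT2 cells (-0.15), and with thinning for Pgk1 in endothelial cells (-1.16) and Slc16a3 in monocytes (0.22). Beyond what each alternative does by construction, the cause was not tested. The stricter and middle gates for monocytes, the stricter gate and clusters for club cells and free RNA for the sums over all cells were not run. Depth limits the low-burden C1q macrophages, where 1 to 5 UMIs stand behind 7 of the 15 genes past 2-fold, and the high-burden monocytes, where 11 genes passed the filter.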
